A study of Rattus norvegicus with 30 samples.

Results

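A set of 10 genes of acid and base transport, best known from the intercalated cells of the kidney, were followed through 30 array profiles of primary rat inner medullary collecting duct cells. The set holds 3 subunits of the vacuolar proton pump (Atp6v1b1, Atp6v0d2 and Atp6v1g3), the chloride/bicarbonate exchangers Slc4a1 and Slc26a4, the ammonia transport proteins Rhcg and Rhbg, the carbonic anhydrases Car2 and Car12, and the transcription factor Foxi1. Each was chosen by its symbol in the array's annotation, through the probe set that carried that symbol alone and had the highest mean over the 30 arrays. All 10 genes were found, among 14506 genes represented in the same way, and each had 1 such probe set.

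Intercalated cells secrete acid or base into the urine. In type A cells a proton pump in the apical membrane works together with Slc4a1 (AE1, band 3) in the basolateral membrane, and in type B cells Slc26a4 (pendrin) exports bicarbonate across the apical membrane. Carbonic anhydrases supply both with protons and bicarbonate from carbon dioxide and water, Rh glycoproteins carry ammonia, and in mice Foxi1 is needed for intercalated cells to form. In the rat these cells are found in the cortex, the outer medulla and the first stretch of the inner medulla, and become rare toward the papilla, where principal-type cells that respond to vasopressin line the duct.

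The study asked how the tonicity of the medium changes gene expression in cultured inner medullary collecting duct cells. All samples were total RNA of primary rat cells from the renal inner medulla, in 10 groups of 3 arrays. In 3 groups the medium was kept at 300, 600 or 900 mosmol/kg (called steady 300, steady 600 and steady 900). In the first upward step, cells grown at 300 mosmol/kg spent 3, 12, 24 or 48 h at 600. In the second upward step, cells grown at 600 mosmol/kg spent 12 or 24 h at 900, and in the return, cells grown at 900 mosmol/kg spent 24 h at 300. The treatment field of all samples also names 5 µM cyclosporin A, a calcineurin inhibitor that no sample title mentions, so it remains unclear from the labels which cultures were exposed to it. The sources used here give neither the strain, age and sex of the animals nor the origin of the replicates, so p-values cover only the spread of these samples, and that spread may be technical. Arrays correlated within groups at 0.989 to 0.996 over genes, the lowest correlation between any 2 arrays was 0.955, and no 2 arrays held identical values.

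The genes fell into 4 that varied widely and 6 that did not. The 10 group means of Car12, Slc26a4, Rhbg and Car2 spanned 5.16, 4.38, 2.31 and 2.29 on the log2 scale of the deposited values, which is 35.8-fold, 20.8-fold, 4.95-fold and 4.90-fold. The other 6 genes (the 3 pump subunits, Slc4a1, Foxi1 and Rhcg) spanned less than 1 on the log2 scale. The means of these 6 lay under the 30th percentile of all genes, a range in which array values flatten, although probe sets differ in brightness and no detection call was used. By limma's moderated F test over the 10 groups, 7 of the 10 genes differed among groups at an adjusted p under 0.05, against 73.7% of all genes, so the share is near the background. Adjusted p was 0.301 for Atp6v1g3, 0.0918 for Slc4a1 and 0.446 for Rhcg. Foxi1, Slc4a1, Rhcg and Atp6v1g3, among the defining genes of intercalated cells, passed the test in 0 of 13 comparisons between groups. Such comparisons cannot tell whether intercalated cells were present. The set is called here by its functions and not as the mark of a cell type.

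**Figure D1:**
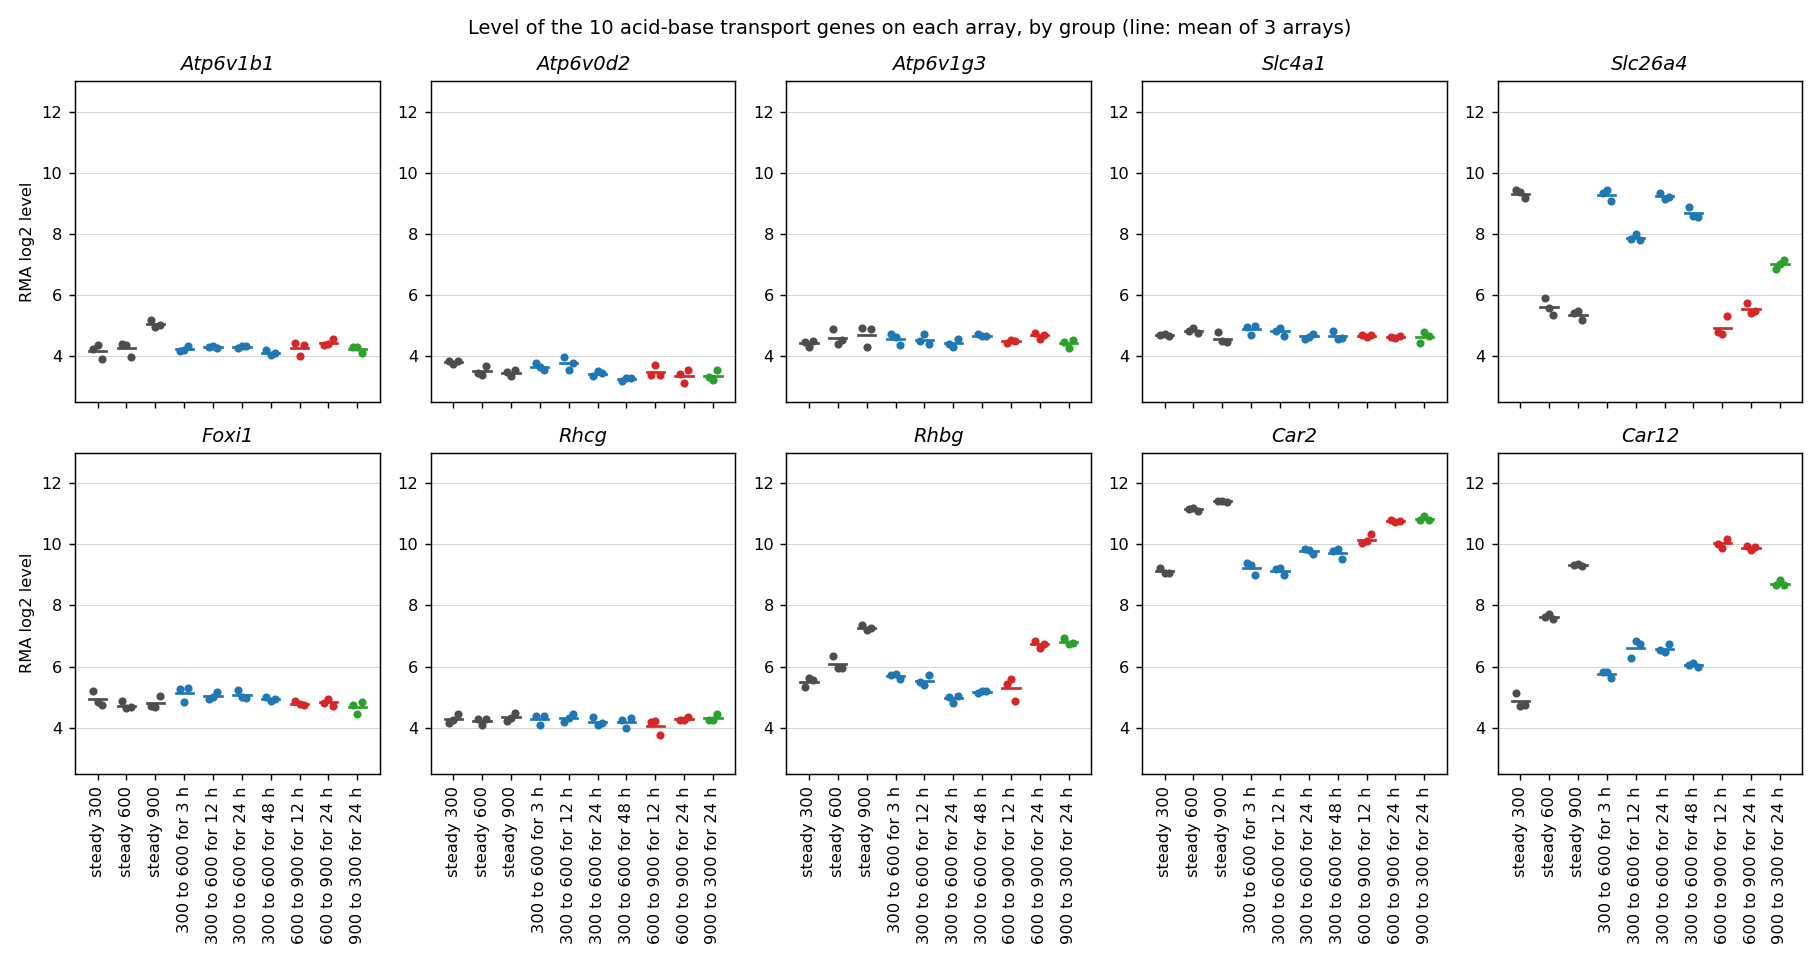
Log2 array level (vertical axis) of each of the 10 genes on every array, by group along the horizontal axis; points are single arrays and short lines are means of 3 arrays. Slc26a4, Rhbg, Car2 and Car12 move over 2.29 to 5.16 log2 units between groups, while the other 6 genes stay within 1 unit.

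Steady cultures were compared to see how the genes differed between cells held at different osmolality. Slc26a4 was lower and Car12 and Car2 were higher at both 600 and 900 mosmol/kg than at 300, and Rhbg and Atp6v1b1 were highest at 900. In steady 600 against steady 300, 3 of the 10 genes were called higher and 1 lower, while 13.7% of all genes were called higher and 13.4% lower. In steady 900 against steady 300, 4 were called higher and 2 lower, against 20.2% and 22.3% of all genes. In steady 900 against steady 600, 4 were called higher and 0 lower, against 11.3% and 12.9% of all genes. With 10 genes, nothing is read from these counts beyond the single genes given below.

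Of the pump subunits, Atp6v1b1 encodes the B subunit isoform of the pump's catalytic head that intercalated cells use. Its log2 levels were 4.24, 4.36 and 3.91 in steady 300, 4.41, 4.38 and 3.98 in steady 600, and 5.19, 4.96 and 5.01 in steady 900. The arrays of steady 900 lay above all 27 other arrays, while steady 300 and steady 600 overlapped. The change was 0.88 ± 0.12 (log2 ± SE) in steady 900 against steady 300, with an adjusted p of 1.92e-07, and 0.80 ± 0.12 in steady 900 against steady 600, with an adjusted p of 3.04e-06. Atp6v0d2, an isoform of the d subunit in the membrane sector that osteoclasts and macrophages also use, had log2 levels of 3.48, 3.36 and 3.57 in steady 900, against 3.83, 3.75 and 3.85 in steady 300. That difference of −0.35 ± 0.12 had an adjusted p of 0.0162, which became 0.0513 without array 3 of steady 300 and 0.0794 without array 2 of steady 900. In steady 600 against steady 300 its difference of −0.30 had an adjusted p of 0.0526, and of 0.0278 to 0.0368 after the other scalings. Beside the fall in steady 900, 13 of 15 macrophage and osteoclast markers were lower than in steady 300 and 1 was higher, with a median of −1.88. Of all genes, 22.3% were lower and 20.2% higher. The part of macrophages and osteoclasts in the Atp6v0d2 result was not tested. In RNA of whole cultures, fewer cells of a type and less RNA per cell cannot be told apart. Atp6v1g3, a G subunit isoform of intercalated cells, had group means between 4.42 and 4.70 and no call in any comparison. Its difference between steady 900 and steady 300 was 0.28, with a 95% interval that reached 0.55, and without array 2 of steady 900 it was 0.48 with an adjusted p of 0.0033.

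The promoter regions of the genes were searched for the core letters of the tonicity element bound by the osmotic stress factor Nfat5 (TGGAAA, or TTTCCA on the other strand) and of a forkhead site (TGTTTAC, or GTAAACA). RefSeq windows on the GRCr8 build, from 250 bases before to 50 bases after a start site of the gene, were matched for 7 of the 10 genes. Of 33469 windows, 22.7% held the tonicity core and 3.78% the forkhead core, with both strands searched. Among the 7 genes only Atp6v1b1 matched, with both cores on the plus strand, 232 and 93 bases before its start, so they do not overlap. The other 6 held neither, which says only that these letters are not in this window. The sequences printed below stop at the outermost annotated start of the gene. In Rhbg and Car12 that start lies before the start site of the window, so 198 and 158 bases are printed, against 250 for Atp6v1b1. The sequences before the start of 3 genes that were highest at raised osmolality are shown, 5′ to 3′, with the matched letters in capitals: Atp6v1b1 at chr4:117781194-117781443 (plus strand), Rhbg at chr2:176015202-176015399 (minus strand) and Car12 at chr8:76169565-76169722 (plus strand).
Atp6v1b1: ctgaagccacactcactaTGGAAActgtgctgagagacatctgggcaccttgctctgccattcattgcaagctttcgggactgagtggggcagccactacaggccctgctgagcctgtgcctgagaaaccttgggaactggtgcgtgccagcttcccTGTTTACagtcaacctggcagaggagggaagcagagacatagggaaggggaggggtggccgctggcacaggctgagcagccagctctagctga
Rhbg: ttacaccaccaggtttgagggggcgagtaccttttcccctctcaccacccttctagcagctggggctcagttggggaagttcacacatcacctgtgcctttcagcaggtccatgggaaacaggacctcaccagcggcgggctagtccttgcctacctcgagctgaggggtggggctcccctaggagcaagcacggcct
Car12: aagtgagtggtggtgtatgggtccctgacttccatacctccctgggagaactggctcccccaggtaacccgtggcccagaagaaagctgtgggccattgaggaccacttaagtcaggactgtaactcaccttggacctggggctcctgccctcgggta

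Among the exchangers, Slc26a4 (pendrin) was high at 300 mosmol/kg and low at both higher osmolalities. Its log2 levels were 9.43, 9.36 and 9.18 in steady 300, 5.89, 5.58 and 5.36 in steady 600, and 5.41, 5.48 and 5.20 in steady 900. No array of steady 300 came near those of the other steady groups, and steady 600 and steady 900 overlapped. In steady 600 the level was 13.1-fold lower than in steady 300 (−3.71 ± 0.14, adjusted p 1.79e-18), and in steady 900 it was 15.5-fold lower (−3.96 ± 0.14, adjusted p 8.99e-20). Steady 900 differed from steady 600 by −0.25 with a 95% interval of −0.53 to 0.04, which misses the threshold. Slc4a1, the basolateral exchanger of type A cells and the anion exchanger of red cells, had group means between 4.58 and 4.88 and no call in any comparison. In steady 900 against steady 600 it differed by −0.26 with an adjusted p of 0.0605, and without array 1 of steady 900 by −0.37 with an adjusted p of 0.0138. Foxi1 had group means between 4.68 and 5.13 and no call between any pair of groups compared.

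The fall of Slc26a4 went with changes in marker genes of other cells. The mean log2 level of the 15 macrophage and osteoclast markers lay between 6.85 and 6.92 on the arrays of steady 600 and between 6.23 and 6.31 on those of steady 900, against 8.37 to 8.42 on those of steady 300. The mean of the 13 principal cell markers lay between 7.79 and 8.14 in steady 600 and between 8.82 and 8.83 in steady 900, against 5.56 to 5.71 in steady 300. Of the 11 fibroblast markers, 6 were lower and 2 higher in steady 600 than in steady 300, with a median of −0.35. In steady 900, 8 were lower and 0 higher than in steady 300, with a median of −1.70. Of all genes, 13.4% were lower and 13.7% higher in steady 600, and 22.3% and 20.2% in steady 900. The part of these shifts in the Slc26a4 result was not tested; the marker counts at single times are given with its time course below.

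Of the ammonia transport proteins, Rhbg (basolateral) was higher with each steady osmolality, and Rhcg, found in both apical and basolateral membranes, differed in no comparison. Rhbg had log2 levels of 5.34, 5.61 and 5.58 in steady 300, 6.35, 5.94 and 5.95 in steady 600, and 7.35, 7.21 and 7.25 in steady 900, with no overlap between the 3 groups. It was 1.48-fold higher in steady 600 than in steady 300 (0.57 ± 0.13, adjusted p 0.00118) and 3.39-fold higher in steady 900 than in steady 300 (1.76 ± 0.13, adjusted p 2.37e-12). Between steady 900 and steady 600 the difference was 1.19 ± 0.13. The group means of Rhcg lay between 4.06 and 4.34, and neighbours in their order overlapped throughout.

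Both carbonic anhydrases were higher in the hypertonic steady cultures. Car12, a membrane enzyme whose catalytic side faces the outside of the cell, had log2 levels of 5.13, 4.73 and 4.75 in steady 300, 7.61, 7.71 and 7.56 in steady 600, and 9.34, 9.37 and 9.28 in steady 900. These groups were far apart, and Car12 was 6.77-fold higher in steady 600 and 22.0-fold higher in steady 900 than in steady 300 (2.76 ± 0.12 and 4.46 ± 0.12). Car2, the abundant cytosolic enzyme, had log2 levels of 9.21, 9.06 and 9.08 in steady 300, 11.16, 11.18 and 11.10 in steady 600, and 11.41, 11.41 and 11.40 in steady 900. It was 4.09-fold higher in steady 600 and 4.90-fold higher in steady 900 than in steady 300 (2.03 ± 0.10 and 2.29 ± 0.10). The step between steady 900 and steady 600 was only 0.26 ± 0.10 (adjusted p 0.0491). Its adjusted p lay between 0.0825 and 0.147 when any 1 of the 6 arrays was left out. The shifts of macrophage, fibroblast and principal cell markers given above for the steady cultures belong to the same arrays. Their part in the Rhbg, Car12, Car2 and Atp6v1b1 differences was not tested.

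**Figure D2:**
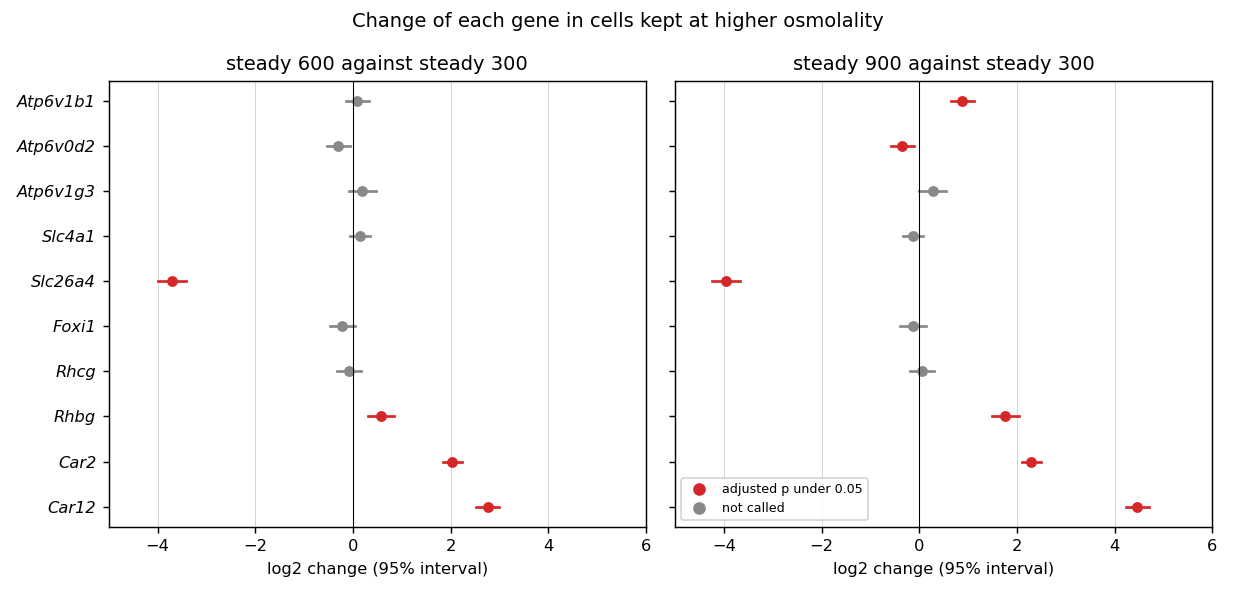
Log2 change of each gene with its 95% interval (horizontal axis), for steady 600 (left) and steady 900 (right) against steady 300; red points passed an adjusted p of 0.05, grey points did not, and each group has 3 arrays. Car12, Car2 and Rhbg lie to the right of 0, Slc26a4 lies near −4, and Rhcg, Slc4a1, Foxi1 and Atp6v1g3 are not called at either osmolality.

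The first upward step was followed over 3, 12, 24 and 48 h to see how soon the genes moved after 300 mosmol/kg was replaced by 600. Each time was compared with the same 3 arrays of steady 300, so the 4 comparisons are not independent. Car12 was already higher at 3 h, Slc26a4 was lower at 12 and 48 h but not by the test at 24 h, and Car2 was higher from 24 h on. At 3 h, 1 of the 10 genes was called higher and 0 lower, against 12.1% and 29.5% of all genes. At 12 h, 1 was higher and 1 lower, against 11.9% and 22.6%. At 24 h, 2 were higher and 2 lower, against 9.4% and 13%, and at 48 h again 2 and 2, against 9.57% and 12%. At 3 h, 70.9% of all calls were lower, and 58.3% after quantile normalization or 59.1% after cyclic loess, so the background shares at 3 h depend on the scaling.

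Slc26a4 did not follow a single course. Its log2 levels were 9.32, 9.42 and 9.08 at 3 h, 7.83, 8.00 and 7.81 at 12 h, 9.36, 9.15 and 9.22 at 24 h, and 8.89, 8.60 and 8.57 at 48 h. The arrays at 12 h lay below those of every other time, and those at 3 and 24 h overlapped steady 300. Against steady 300 the level was 2.72-fold lower at 12 h (−1.44 ± 0.14, adjusted p 2.82e-09) and 1.55-fold lower at 48 h (−0.64 ± 0.14, adjusted p 0.00107). At 24 h the difference was −0.08 with a 95% interval of −0.37 to 0.21 and an adjusted p of 0.764. Of the 15 macrophage and osteoclast markers, 2 were lower and 1 higher than in steady 300 at 12 h (median −0.01), 11 were lower and 0 higher at 24 h (median −1.53), and 10 were lower and 1 higher at 48 h (median −1.22). Of the 11 fibroblast markers, 6 were lower at 12 h (median −0.34), 8 at 24 h (median −1.19) and 9 at 48 h (median −0.66), and 0 were higher at any of these times. Of the 13 principal cell markers, 4 were lower and 1 higher at 12 h (median −0.13), 0 were lower and 1 higher at 24 h (median 0.09), and 1 was lower and 5 higher at 48 h (median 0.11). At 3 h, 5 macrophage and osteoclast markers were lower and 3 higher (median −0.22), and 3 fibroblast markers were lower and 1 higher (median −0.08). Of the principal cell markers, 0 were lower and 5 higher at 3 h (median 0.25). Of all genes, 29.5% were lower and 12.1% higher at 3 h, and 22.6% and 11.9% at 12 h. At 24 h these shares were 13% and 9.4%, and at 48 h 12% and 9.57%, so some of the marker counts are near or under the background. The part of the marker differences in the Slc26a4 course was not tested.

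Car12 rose first and stayed short of its level in steady 600. It had log2 levels of 5.81, 5.82 and 5.63 at 3 h, 6.28, 6.84 and 6.73 at 12 h, 6.54, 6.49 and 6.73 at 24 h, and 6.04, 6.13 and 5.97 at 48 h. All of these lay above the highest array of steady 300 and below the lowest of steady 600, and the 48 h arrays lay below those at 12 and 24 h. The change against steady 300 was 0.89 ± 0.12 at 3 h (adjusted p 6.34e-07), 1.75 ± 0.12 at 12 h, 1.72 ± 0.12 at 24 h and 1.18 ± 0.12 at 48 h. Car2 had log2 levels of 9.38, 9.33 and 9.00 at 3 h, 9.18, 9.22 and 9.00 at 12 h, 9.84, 9.81 and 9.68 at 24 h, and 9.80, 9.85 and 9.52 at 48 h. Its early arrays overlapped steady 300, and the change was 0.66 ± 0.10 at 24 h (adjusted p 4.17e-06) and 0.61 ± 0.10 at 48 h (adjusted p 1.62e-05). At 3 h its difference of 0.12 passed the threshold after quantile normalization (0.31, adjusted p 0.0153), after cyclic loess (0.33, adjusted p 0.00736) and without array 3 at 3 h (0.24, adjusted p 0.0435). Without array 2 at 3 h, Slc4a1 and Foxi1 passed instead, at 0.27 and 0.34 with adjusted p of 0.0471 and 0.0366.

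Rhbg was lower at 24 h of the first step, the opposite of its difference between the steady cultures. Its log2 levels were 5.72, 5.75 and 5.58 at 3 h, 5.50, 5.40 and 5.71 at 12 h, 5.02, 4.83 and 5.05 at 24 h, and 5.15, 5.20 and 5.20 at 48 h. The arrays at 24 and 48 h all lay below those of steady 300. The change was −0.54 ± 0.13 at 24 h (adjusted p 0.00243), and −0.33 ± 0.13 at 48 h with an adjusted p of 0.076 that became 0.0468 without array 1 of steady 300. Atp6v0d2 had log2 levels of 3.20, 3.29 and 3.28 at 48 h, against 3.83, 3.75 and 3.85 in steady 300, without overlap. Its change was −0.55 ± 0.12 at 48 h (adjusted p 0.00058), and −0.37 ± 0.12 at 24 h with an adjusted p of 0.0179. The 24 h call was lost when array 1 or 3 of steady 300 or array 1 at 24 h was left out, with adjusted p of 0.0547, 0.0608 and 0.0802. The macrophage and osteoclast markers, counted above, were mostly lower at these 2 times, and their part in the Atp6v0d2 result was not tested. Atp6v1b1, Atp6v1g3 and Rhcg passed the test at none of the 4 times.

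After 48 h at 600 mosmol/kg the cells had not reached the levels of cells kept at 600. In that comparison 1 of the 10 genes was higher and 3 lower, against 9.47% and 12.5% of all genes. Slc26a4 was 8.43-fold higher after 48 h than in steady 600 (3.08 ± 0.14), while Car12 (−1.58 ± 0.12), Car2 (−1.42 ± 0.10) and Rhbg (−0.90 ± 0.13) were lower. Of the log2 distance between steady 300 and steady 600, the 48 h cells had covered 17.1% for Slc26a4, 30.0% for Car2 and 42.8% for Car12. For Rhbg the value was −57.9%, as its 48 h mean (5.18) lay below steady 300 (5.51) and so farther from steady 600 (6.08). Aqp2, the vasopressin-regulated water channel of principal cells, was likewise 8.09-fold lower after 48 h than in steady 600 (−3.02 ± 0.20).

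**Figure D3:**
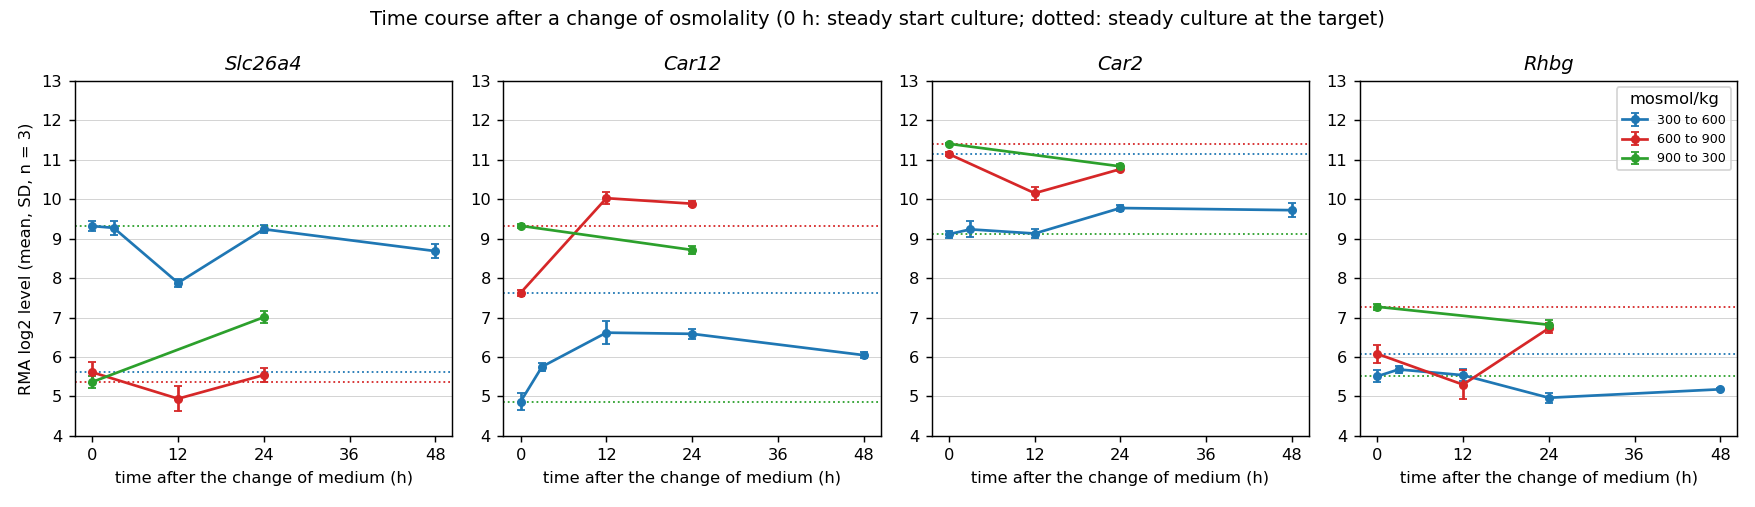
Log2 array level of Slc26a4, Car12, Car2 and Rhbg against hours after the change of medium for both upward steps and the return; points are means of 3 arrays with SD bars, 0 h is the steady culture the cells came from, and dotted lines are the steady culture at the new osmolality. Slc26a4 dips to a mean of 7.88 at 12 h of the first step and is 9.24 at 24 h, while Car12 reaches 10.03 at 12 h of the second step.

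The second upward step was examined at 12 and 24 h against steady 600, the culture it started from. Car12 rose further, whereas Car2, Rhbg and Slc26a4 were lower at 12 h. At 12 h, 1 gene was higher and 3 lower, against 12.5% and 25.3% of all genes. At 24 h, 2 were higher and 1 lower, against 11.2% and 14.7%. Of all calls, 67.0% were lower at 12 h and 54.3% to 55.8% after the other scalings, and 56.7% were lower at 24 h and 46.0% after median centring.

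Slc26a4 had log2 levels of 4.80, 4.72 and 5.31 at 12 h and 5.74, 5.41 and 5.48 at 24 h, against 5.89, 5.58 and 5.36 in steady 600. The 12 h arrays were all below steady 600 and the 24 h arrays overlapped it. The change was −0.67 ± 0.14 at 12 h (adjusted p 0.000287), and −0.07 at 24 h with a 95% interval of −0.36 to 0.22. Rhbg had log2 levels of 5.44, 5.59 and 4.87 at 12 h and 6.85, 6.60 and 6.74 at 24 h, against 6.35, 5.94 and 5.95 in steady 600. It was thus below steady 600 on every array at 12 h (−0.78 ± 0.13, adjusted p 1.82e-05) and above it on every array at 24 h (0.65 ± 0.13, adjusted p 0.000346). Car2 had log2 levels of 10.03, 10.10 and 10.34 at 12 h and 10.80, 10.72 and 10.77 at 24 h, against 11.16, 11.18 and 11.10 in steady 600. It was lower at both times, by −0.99 ± 0.10 at 12 h (adjusted p 1.99e-09) and by −0.38 ± 0.10 at 24 h (adjusted p 0.0033), although steady 900 lay above steady 600. Car12 had log2 levels of 10.02, 9.88 and 10.19 at 12 h and 9.94, 9.81 and 9.91 at 24 h, against 7.61, 7.71 and 7.56 in steady 600. All 6 arrays were above steady 600, and the change was 2.40 ± 0.12 at 12 h and 2.26 ± 0.12 at 24 h. The pump subunits, Slc4a1, Foxi1 and Rhcg passed the test at neither time.

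The 24 h cells were also set against steady 900, where 1 gene was higher and 3 lower, against 9.47% and 8.83% of all genes. Car12 was 1.48-fold higher at 24 h than in steady 900 (0.56 ± 0.12, adjusted p 0.000689), which is 133% of the log2 distance between steady 600 and steady 900. Atp6v1b1 was lower than in steady 900 (−0.61 ± 0.12, adjusted p 0.000264), with 4.36, 4.40 and 4.57 after 24 h at 900 against 5.19, 4.96 and 5.01 in steady 900. Rhbg (−0.54 ± 0.13) and Car2 (−0.64 ± 0.10) were lower too, and Rhbg had covered 54.3% of its distance. For Car2 the value was −146%, as its 24 h mean (10.77) lay below steady 600 (11.15) and so farther from steady 900 (11.41).

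Whether the genes answered the second step as they had the first was tested as the difference between the 2 changes, second minus first, at 12 and at 24 h. At 12 h, 2 genes had a positive and 2 a negative difference, against 6.18% and 7.25% of all genes, and at 24 h, 2 and 1, against 7.48% and 5.46%. Of all calls at 12 h, 54.0% were negative, and 37.5% to 43.9% after the other scalings. For Slc26a4 the 12 h difference was 0.77 ± 0.20 (adjusted p 0.0077). It was lower in both steps at 12 h, and the second step started from a mean level of 5.61, against 9.32 for the first. At 12 h of the second step its mean of 4.94 lay under the 30th percentile of gene means (5.05). The part of the flattening of dim values in this difference was not tested. At 24 h the difference for Slc26a4 was 0.01 with a 95% interval of −0.40 to 0.42. For Rhbg the difference was −0.81 ± 0.19 at 12 h and 1.19 ± 0.19 at 24 h, and for Car2 it was −1.01 ± 0.14 and −1.04 ± 0.14. For Car12, higher in both steps, it was 0.65 ± 0.16 at 12 h (adjusted p 0.0062) and 0.54 ± 0.16 at 24 h (adjusted p 0.0246). Its first step started from a mean level of 4.87, under the 30th percentile of gene means (5.05), and its second from 7.63. The part of the flattening of dim values in the Car12 differences was not tested. The 12 h call was lost with only the compared arrays (adjusted p 0.0504), and the 24 h call with the replicate block (adjusted p 0.0541) and on leaving out any 1 of 6 arrays. These were array 1 of steady 300, array 3 of steady 600, arrays 1 and 2 at 24 h of the first step, and replicates 1 and 9 at 24 h of the second, and adjusted p then lay between 0.0501 and 0.107.

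The return from 900 to 300 mosmol/kg asked what 24 h at the lower osmolality changed. Slc26a4 rose again and Atp6v1b1, Car12, Car2 and Rhbg fell. Against steady 900, 1 gene was higher and 4 lower, while 19.3% of all genes were higher and 18.5% lower. Slc26a4 had log2 levels of 6.86, 7.01 and 7.16 after the return, against 5.41, 5.48 and 5.20 in steady 900. The groups did not overlap, and the level was 3.12-fold higher (1.64 ± 0.14, adjusted p 1.50e-10), or 41.5% of the log2 distance to steady 300. In the same arrays 10 of the 13 principal cell markers were lower and 0 higher than in steady 900, with a median of −1.12. Of the 15 macrophage and osteoclast markers, 8 were lower and 1 higher, with a median of −0.38, and of the 11 fibroblast markers 2 were lower and 3 higher, with a median of −0.16. The part of these markers in the Slc26a4 result was not tested. Atp6v1b1 had log2 levels of 4.29, 4.32 and 4.12, against 5.19, 4.96 and 5.01 in steady 900, a change of −0.81 ± 0.12 (adjusted p 1.44e-06). It overlapped steady 300, from which it differed by 0.07 with a 95% interval of −0.17 to 0.31. Atp6v1g3 differed from steady 900 by −0.28 with an adjusted p of 0.114, and without array 2 of steady 900 by −0.48 with an adjusted p of 0.00394.

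Car12 kept most of its level after the return, at 8.67, 8.82 and 8.66 against 9.34, 9.37 and 9.28 in steady 900. The change of −0.61 ± 0.12 (adjusted p 8.04e-05) was 13.7% of the log2 distance to steady 300. Car2 changed by −0.57 ± 0.10 and Rhbg by −0.46 ± 0.13, which was 25.0% and 25.8% of the distance. Against steady 300, 3 genes were still higher and 2 lower after the return, while 20.4% of all genes were higher and 22.2% lower. Car12 was 14.4-fold higher (3.85 ± 0.12), Car2 3.29-fold (1.72 ± 0.10) and Rhbg 2.48-fold (1.31 ± 0.13), and Slc26a4 was 4.97-fold lower (−2.31 ± 0.14). Atp6v0d2 was lower too (−0.44 ± 0.12, adjusted p 0.00227), in arrays in which 13 of 15 macrophage and osteoclast markers were lower and 1 higher than in steady 300. Foxi1 differed by −0.26 with an adjusted p of 0.104, and without array 3 of steady 300 by −0.36 with an adjusted p of 0.0447.

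Over the 13 comparisons between pairs of groups, Car12 was called in 13, Car2 in 11, Rhbg in 10, Slc26a4 in 8, and Atp6v1b1 and Atp6v0d2 in 4 each, while Atp6v1g3, Slc4a1, Foxi1 and Rhcg were called in 0. Foxi1 differed among the 10 groups by the F test with an adjusted p of 0.0219. The order of the group means of Car12 began with steady 300 and ended with the second step, and only the 12 and 24 h groups within each step overlapped as neighbours. For Slc26a4 the lowest 4 groups (both times of the second step, steady 900 and steady 600) overlapped as neighbours, and so did the highest 3 (steady 300 and the first step at 24 and 3 h). The return and the first step at 12 and 48 h lay between these blocks, each apart from its neighbours.

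The remaining genes of the same pathways were taken from lists, described here by their counts in steady 900 against steady 300, where the median over all genes was near 0 and 20.2% of all genes were higher and 22.3% lower. Of 21 other pump subunits, 6 were higher and 6 lower, which is near these background shares, with a median of 0.11. The higher ones included Atp6v1h (1.11 ± 0.07), Atp6v1c2 (0.75 ± 0.09) and Atp6v0a1 (0.72 ± 0.08), and the lower ones Tcirg1, the a subunit isoform of osteoclasts (−0.77 ± 0.08), Atp6v0b (−0.44 ± 0.09) and Atp6v1e1 (−0.34 ± 0.09). Atp6v1b2, the widely expressed B subunit isoform, had group means between 10.55 and 11.12 and did not pass in this comparison (−0.09 ± 0.12). Atp6v0a4, the a subunit isoform of intercalated cells, was 1.31-fold higher (0.39 ± 0.10), and its highest group mean, 5.48, was at 3 h of the first step. At 3 h, 13 of the 21 other subunits were called lower and 2 higher as deposited, with a median of −0.24. Of all 14506 genes, 29.5% were lower and 12.1% higher (4282 and 1759 genes). After quantile normalization 6 of the 21 were lower and 2 higher, beside 3080 and 2199 of all genes. After cyclic loess 5 were lower and 3 higher, beside 3022 and 2091 of all genes. At 12 h of the second step, 10 were lower and 2 higher, with a median of −0.28, beside 25.3% of all genes lower and 12.5% higher. After the other scalings 8 to 10 of the 21 were lower and 2 or 3 higher, and the median lay between −0.21 and −0.09. Of all 14506 genes, 3069 to 3095 were then lower and 2451 to 2587 higher, against 3672 and 1812 as deposited.

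Of 13 other carbonic anhydrases, 4 were higher and 4 lower in steady 900 than in steady 300, with a median of 0.14, where 20.2% of all genes were higher and 22.3% lower. The mitochondrial Car5b (1.49 ± 0.10) and the cytosolic Car13 (1.26 ± 0.18) rose, and the membrane enzyme Car4 (−1.53 ± 0.13) and the muscle enzyme Car3 (−0.95 ± 0.13) fell. Of 25 other acid, base and ammonium transporters, 6 were higher and 7 lower, with a median of 0.03, also near the shares over all genes. Slc4a11, a membrane transport protein related to the bicarbonate transporters, was 31.7-fold higher (4.99 ± 0.09), and Slc4a8, a sodium-driven chloride/bicarbonate exchanger, was 2.39-fold higher (1.26 ± 0.10). The monocarboxylate transporter Slc16a3 (−1.51 ± 0.11), the sodium bicarbonate cotransporter Slc4a4 (−0.90 ± 0.11) and the sodium/proton exchanger Slc9a2 (−0.80 ± 0.10) were lower. Of 7 genes of acid and bicarbonate sensing, 0 were higher and 4 lower, with a median of −0.35.

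Of 20 further markers of intercalated cells, some of which also stand in the pump and transporter lists, 5 were higher and 2 lower in steady 900 than in steady 300, with a median of 0.02, beside the same 20.2% and 22.3% of all genes. Slc26a7, an anion exchanger of type A cells in the outer medulla, rose (0.91 ± 0.13), and its highest group mean, 5.66, was at 24 h of the second step, where it was 3.08-fold higher than in steady 600. The 2 lower ones were Mme (−3.05 ± 0.12) and Cftr (−2.04 ± 0.12). Kit had group means between 6.58 and 9.27, with 8.39 in steady 300, 9.27 in steady 600 and 8.91 in steady 900. At 12 h of the second step Kit was 4.35-fold lower than in steady 600 (−2.12 ± 0.12). At 12 h of the first step it was 3.51-fold lower than in steady 300 (−1.81 ± 0.12). Slc4a9, an exchanger of type B cells, stayed between group means of 4.47 and 4.83, Hepacam2 between 3.13 and 3.55, and Insrr, a receptor kinase that senses alkaline pH, between 3.88 and 4.18. None of these 3 passed in steady 900 against steady 300. Of 13 principal cell markers, 11 were higher and 0 lower in the same comparison, with a median of 3.68, led by Aqp2 (6.44 ± 0.20). Among 13 markers of red cells, which also use Slc4a1, 2 were higher and 1 lower, with a median of 0.09 and changes from −0.28 to 1.83. Rhag, the red cell Rh glycoprotein, had group means between 3.18 and 3.35. Among 13 markers of other nephron segments, 4 were higher and 0 lower, with a median of 0.16 and changes from −0.02 to 4.33. Umod, of the thick ascending limb, stayed between group means of 4.18 and 4.44.

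**Figure D4:**
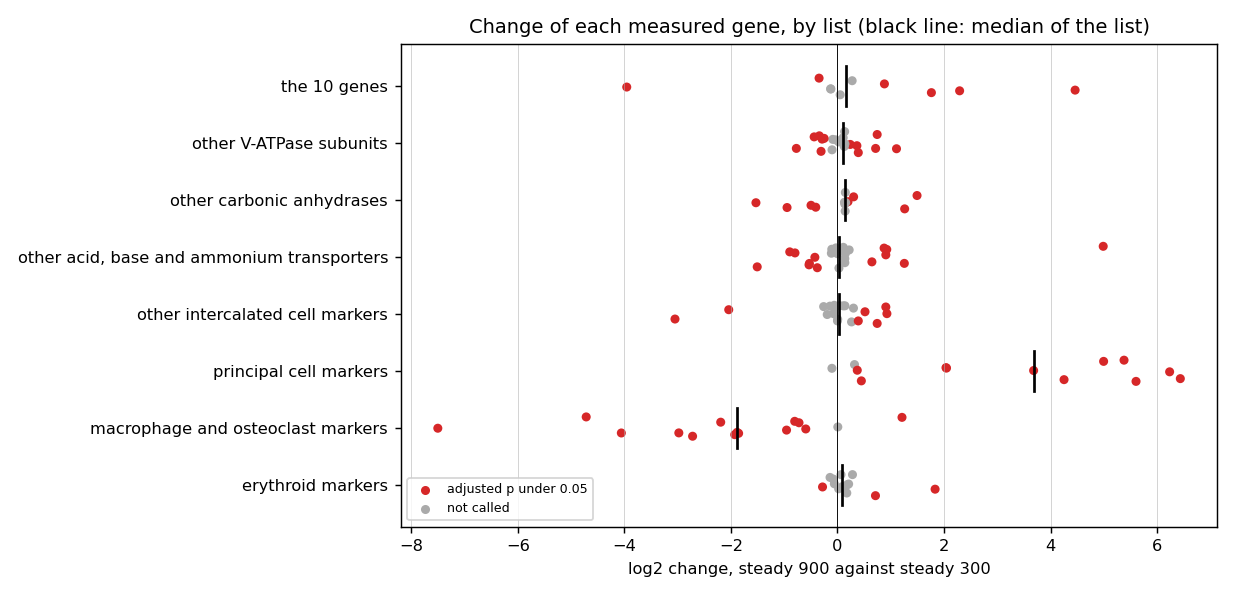
Log2 change of each gene in steady 900 against steady 300 (horizontal axis) for the 8 gene lists drawn, 1 point per gene, with a black line at the list median; red points passed an adjusted p of 0.05 and grey points did not. The 13 principal cell markers have a median of 3.68 and the 15 macrophage and osteoclast markers one of −1.88, while the lists of pump subunits, carbonic anhydrases and transporters have medians of 0.03 to 0.14 with members on both sides.

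The pattern over the 10 group means was compared by Pearson's r with 3951 other genes whose means spanned at least 1. The genes most like Slc26a4 were Ptprz1 (0.986), Rdh10 (0.973) and Gja1 (0.971), and those most like Car12 were Tinagl1 (0.988), Slc4a11 (0.976) and Chrm3 (0.964). Mdga2 (0.984), Capn5 (0.975) and Padi1 (0.973) were most like Car2, and Kcnq1 (0.965), Rgn (0.961) and Dbi (0.956) most like Rhbg. Among the 4 genes themselves, r over the 10 group means was −0.91 between Slc26a4 and Car12, −0.80 between Slc26a4 and Car2, −0.59 between Slc26a4 and Rhbg, 0.77 between Rhbg and Car2, 0.76 between Car2 and Car12, and 0.59 between Rhbg and Car12. These values describe 10 groups that share platform and normalization but differ in marker genes of other cells. Array means of the macrophage and osteoclast markers were 8.37 to 8.42 in steady 300 and 5.75 to 5.79 after the return. Those of the fibroblast markers were 9.16 to 9.19 and 7.11 to 7.19.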

How the data were processed

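Total RNA of 30 samples was hybridised to Affymetrix Rat Gene 1.0 ST arrays, 1 array per sample. The authors deposited log2 values. Per the submitters' processing notes these come from RMA (robust multi-array average), which corrects background, scales arrays to each other and summarises probes. The sources used here do not state its version or summary level. Names came from the platform annotation: of 29170 probe sets, 15310 had 1 gene symbol, 323 several and 13537 none. Each of 14506 genes was represented by its single-symbol probe set with the highest mean. Array values flatten at both ends of the scale, so changes of dim and bright genes can be understated, and the number of arrays limits the precision.

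Groups were taken from the sample titles. Deposited log2 values were fitted without further scaling with limma 3.58.1 in R 4.3.3 (lmFit and eBayes on the 30 arrays together, with a mean for each group), and Benjamini-Hochberg adjustment ran over all 14506 genes, with calls at 0.05. There were 13 comparisons between pairs of groups, 2 differences between the upward steps and a moderated F test over all groups. Errors are the SE of the fit, or SD over n = 3 arrays. The script was tested on simulated data. Replicates are numbered 1, 2 and 9 in the second step and the return, and 1, 2 and 3 elsewhere; of 34 same-numbered pairs of arrays, 3 had deviations from their group means that correlated above 0.1, so the numbers were not taken to pair the samples.

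The 10 genes and the further lists were chosen with earlier results of these data known. All 10 were named. Of each further list, up to 3 called genes each way in steady 900 against steady 300 and up to 2 each way in other comparisons could be named, and Aqp2, Elf5, Umod, Atp6v0a4, Atp6v1b2, Slc4a9, Slc26a7, Hepacam2, Insrr, Kit and Rhag always. For genes whose group means spanned at least 1, the 3 most alike by Pearson's r were named. Alternatives were quantile, median-centring and cyclic loess scaling, a filter on dim genes, averaging the probe sets of a gene, all probe sets, array weights, trend and robust settings, a replicate block, only the compared arrays, and each array left out in turn.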

Additional observations from a re-analysis of the deposited data

Results flagged for a closer look

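In 7 cases the change after the second upward step (600 to 900 mosmol/kg) differed from that after the first (300 to 600 mosmol/kg), by a test of the difference itself, second minus first, with 3 arrays in each of the 4 groups. At 12 h the difference was 0.77 ± 0.20 for Slc26a4 (adjusted p 0.0077), −0.81 ± 0.19 for Rhbg (adjusted p 0.0029), −1.01 ± 0.14 for Car2 (adjusted p 4.06e-06) and 0.65 ± 0.16 for Car12 (adjusted p 0.0062), on the log2 scale. At 24 h it was 1.19 ± 0.19 for Rhbg (adjusted p 3.15e-05), −1.04 ± 0.14 for Car2 (adjusted p 2.56e-06) and 0.54 ± 0.16 for Car12 (adjusted p 0.0246). The Car12 difference at 12 h lost its call with only the compared arrays (adjusted p 0.0504). The one at 24 h lost it with the replicate block (adjusted p 0.0541) and on leaving out any 1 of 6 arrays (adjusted p 0.0501 to 0.107). Rhbg differed in opposite directions at the 2 times. At 12 h Slc26a4 was lower and Car12 higher in both steps. The first step started from mean levels of 9.32 for Slc26a4 and 4.87 for Car12, and the second from 5.61 and 7.63. The 30th percentile of gene means was 5.05, and Slc26a4 had a mean of 4.94 at 12 h of the second step. The part of the flattening of dim values in these differences was not tested. No other of the 10 genes differed at an adjusted p under 0.05.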

How the results depend on the processing

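Of 150 pairs of a gene and a comparison, 57 were called, and 52 of these stayed called with the same direction in every setting run for them and with any array left out. For 46 these were all 10 other settings, and for 6, of Atp6v1b1 and Atp6v0d2, they were 9, since the filter on dim genes removes both genes. The 5 lost in some setting were Car2 in steady 900 against steady 600 (also lost with all probe sets, adjusted p 0.0764), Atp6v0d2 in steady 900 against steady 300 and at 24 h of the first step, and the Car12 differences between the steps. With only the compared arrays the 12 h Car12 difference had an adjusted p of 0.0504, and with the replicate block the 24 h one was 0.51 with an adjusted p of 0.0541; the replicate block changed no other call. Of 93 uncalled pairs, 12 were called in some setting and 43 changed sign in some setting. The number of the 10 genes called at 3 h of the first step was 1, and 2 with quantile or cyclic loess scaling, and 1 to 3 with an array left out. The F test called 7, and 4 with the filter on dim genes, under which only 4 of the 10 were tested. Counts over all genes moved by over 1.5 times in these cases: with all probe sets 9687 against 6041 calls at 3 h and 7610 against 5011 at 12 h of the first step, out of 29170 probe sets in place of 14506 genes, so that the share called was lower (33.2% against 41.6%, and 26.1% against 34.5%); with array weights 4994 against 3242 at 24 h and 5130 against 3128 at 48 h, 4264 against 2654 for 24 h at 900 against steady 900, and 3647 against 1947 and 3468 against 1877 for the differences at 12 and 24 h; with only the compared arrays 2976 against 1877 for the 24 h difference. The causes of the other moves were not tested. The 6 dim genes lie where array values flatten, so small changes of theirs may go unseen. Some single group means of other genes also lay under the 30th percentile of gene means (5.05). These were Car12 in steady 300 (4.87), Slc26a4 at 12 h of the second step (4.94) and Rhbg at 24 h of the first (4.96).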
